A study of Mus musculus with 2 samples.

Results

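The regenerating islet-derived (Reg) genes encode small secreted C-type lectins. The family was followed here in distal colon RNA of wild-type mice and of mice transgenic for interleukin-9 (IL-9). Its 7 members on the array (Reg1, Reg2, Reg3a, Reg3b, Reg3d, Reg3g and Reg4) were taken by gene symbol from the platform annotation, among 12393 genes with a symbol of their own. They were read by 8 probe sets, groups of short oligonucleotides for 1 transcript, and 0 probe sets carried a member's symbol together with another gene's. Wild-type mice were of the FVB inbred strain, and the transgenic mice were of the line labelled Tg5. Each group was 1 pool of RNA from 4 mice on 1 Affymetrix array, and all mice were kept free of specific pathogens. Age, sex, the promoter that drives the transgene and the cells that express it are not given in the sources used here. Because each genotype had 1 pool, no difference below has a replicate check, no test was possible and no p-value is given. In a bulk sample, fewer cells of a type and less RNA per cell cannot be told apart.

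Reg proteins fall into groups by origin and role. Reg1 and Reg2 are the pancreatic stone proteins, secreted mainly by acinar cells of the exocrine pancreas and also induced in injured gut epithelium. Reg3b and Reg3g are bactericidal lectins of the intestinal epithelium, where microbes induce them through MyD88 and interleukin-22 (IL-22) signals that act on STAT3. Reg3d is related to the islet neogenesis-associated protein. Reg4 marks secretory cells at the base of colonic crypts and some enteroendocrine cells.

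In the colon of these mice the family split into a gene present in both pools, genes present in wild type alone, and genes not measurable in either pool. Reg4 exceeded the floor in both pools and was 1.51-fold higher in the transgenic pool. Reg1, Reg2 and Reg3d exceeded it in wild type alone, so that Reg1 was lower in transgenic colon by a factor of at least 63.1 and Reg2 by at least 3.35. Reg3a, Reg3b and Reg3g stayed below it in both. Values below 19.8 were raised to that floor, which is the 40th percentile of the non-control values of both arrays together. A gene above it in at least 1 pool is called measured, and a fold against a pool at the floor is a lower bound, written as at least N-fold.

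By the 2-fold rule (a log2 ratio of 1 or more, in either direction), 2 of the 4 measured members were lower, beside 0.611% of the 8346 measured genes, and 0 were higher, beside 0.767%. The 3 members above the floor in wild type alone could have come out only as lower, so their shared direction follows from how they passed. The median log2 ratio of the 4 measured members was −1.13, beside 0.04 for all measured genes, and 3 of its 4 values are bounds whose size the floor sets. The count moved with the floor: a floor at the 60th percentile left 1 gene, and one at the 20th gave 4. The median moved to −0.27 and −2.19 under those floors.

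**Figure D1:**
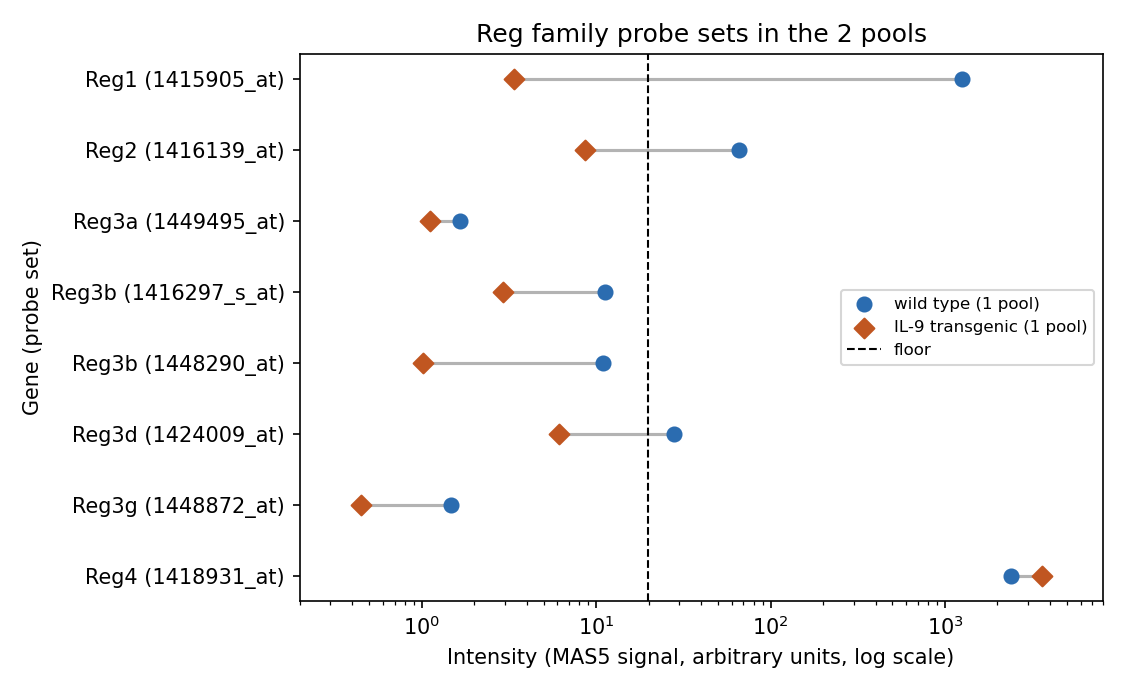
Intensity (MAS5 signal, log scale) of each Reg probe set in the wild-type pool (circles) and the IL-9 transgenic pool (diamonds), 1 pool of 4 mice each. The dashed line is the floor of 19.8. Reg4 lies right of the floor in both pools, Reg1, Reg2 and Reg3d only in wild type, and the 4 probe sets of Reg3a, Reg3b and Reg3g lie left of it in both.

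Transgene expression matched the labels. Il9 was read at 5.14 (under the floor) in the wild-type pool against 862 in the transgenic pool, at least 43.6-fold higher. The arrays were alike in scale, with median intensities of 33.96 and 34.17 and with 60.2% and 59.8% of non-control probe sets above the floor. All 17 colonocyte genes on the array were measured, with a median log2 ratio of 0.01. Colonocyte transport genes were present in both pools: Aqp8, a water channel, had intensities of 1286 (wild type) and 1111 (transgenic), and Slc26a3, a chloride/bicarbonate exchanger, had 2296 and 1942. Scnn1g, a sodium channel subunit, was the 1 colonocyte gene at least 2-fold lower. Aqp8 and Slc26a3 were chosen after their values were seen.

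Reg1 had the widest gap of the family. Its probe set 1415905_at read 1249.6 in the wild-type pool against 3.37 in the transgenic pool, so the wild-type pool was far above the floor and the transgenic pool below it. The log2 ratio against the floor was −5.98, at least 63.1-fold lower. This is a bound, so its size depends on the floor, −4.50 for the 60th percentile and −7.81 for the 20th, and it stayed past 2-fold under all 8 alternatives run.

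Reg2, the closest relative of Reg1 in this group, was lower too but from a wild-type level nearer the floor. Probe set 1416139_at read 66.3 in the wild-type pool against 8.68 in the transgenic pool. The log2 ratio was −1.74, at least 3.35-fold lower. Its call rests on the floor: with the 60th percentile as floor (an intensity of 55.1) the log2 ratio was −0.27, within 2-fold.

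Reg3d lay just above the floor in wild type. Probe set 1424009_at read 28.1 in the wild-type pool against 6.16 in the transgenic pool. The log2 ratio of −0.51 is a bound of at least 1.42-fold and did not reach 2-fold. With the lower floor of 5.58 both pools exceeded it, and the ratio was 4.56-fold lower.

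The bactericidal lectin genes Reg3b and Reg3g were not measurable in distal colon of either genotype. Reg3b has 2 probe sets, of which 1416297_s_at read 11.3 in the wild-type pool against 2.92 in the transgenic pool. The other, 1448290_at, had 11.0 and 1.02. The suffix of the former marks a probe set that can bind transcripts of several genes. Reg3g (1448872_at) had 1.48 and 0.447, and Reg3a (1449495_at) had 1.67 and 1.12. Thus none of these 3 genes gives a ratio at the main floor.

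All 7 probe sets of the 6 members other than Reg4 had a lower deposited value in the transgenic pool, including the 4 probe sets below the floor in both pools. Of the 8477 non-control probe sets below the floor on both arrays, 55.4% were lower in the transgenic pool. MAS5 ratios between such low values are unstable, so no direction is drawn for Reg3a, Reg3b or Reg3g.

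Reg4 was the 1 member measured in both pools. Probe set 1418931_at read 2397 in the wild-type pool against 3619 in the transgenic pool. The log2 ratio was 0.59, a 1.51-fold difference that did not reach 2-fold, and it ran from 0.58 to 0.60 over the 8 alternatives. A higher ratio was found in 329 measured genes (3.94%), and the middle 95% of all measured genes, which holds Reg4, ran from −0.61 to 0.70. A technical yardstick was the spread between probe sets of 1 gene, with a pooled SD of 0.28 on the log2 ratio over 2847 genes. It holds no spread between animals, and Reg4 has 1 probe set. The highest intensity on either array was 4760.3, and differences near the top of the scale can be compressed.

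**Figure D2:**
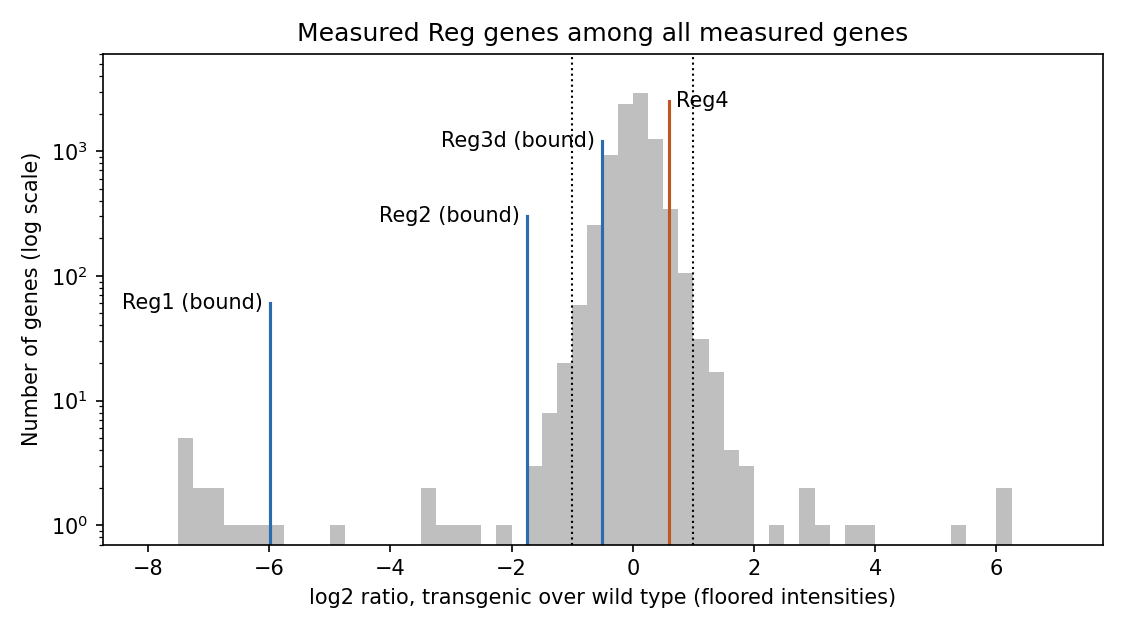
Histogram of log2 ratios (transgenic over wild type) of the 8346 measured genes, with the number of genes on a log scale, and the 4 measured Reg genes as vertical lines whose height carries no value. Dotted lines mark 2-fold. Reg1 (−5.98) and Reg2 (−1.74) lie left of the 2-fold line as bounds, and Reg3d (−0.51, a bound) and Reg4 (0.59) lie inside it.

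The members differ in place as well as in expression. By RefSeq annotation (GRCm38.p6), Reg3b, Reg3d, Reg3a, Reg2, Reg1 and Reg3g follow each other in that order on chromosome 6 with no other protein-coding gene between them, whereas Reg4 lies on chromosome 3. The nearest protein-coding neighbours before Reg3b, Lrrtm1 and Ctnna2, were below the floor in both pools (4.99 and 4.02 for Lrrtm1, 7.85 and 1.60 for Ctnna2). The neighbours after Reg3g were not analysed here. Reg1 and Reg2, the members past 2-fold, thus lie side by side in the cluster, and Reg3g on the far side of Reg1 was not measurable.

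The promoters of Reg1 and Reg2, the lower members, are shown with that of Reg4, the member that was higher, as the 250 bases before the RefSeq start site (GRCm38.p6; chr6:78425733-78425982, plus strand, for Reg1; chr6:78404905-78405154, plus strand, for Reg2; chr3:98221906-98222155, plus strand, for Reg4). Capitals mark matches on either strand to CACCTG and TTTCCC, the E-box and TC-box letters bound by the acinar factor PTF1, to TTCNNNGAA, the core of STAT sites, and to TATAAA, the TATA box.
Reg1: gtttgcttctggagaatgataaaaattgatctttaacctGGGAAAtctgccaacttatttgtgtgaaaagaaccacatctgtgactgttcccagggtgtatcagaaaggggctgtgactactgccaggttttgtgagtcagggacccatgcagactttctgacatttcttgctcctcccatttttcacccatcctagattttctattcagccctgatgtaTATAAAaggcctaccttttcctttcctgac
Reg2: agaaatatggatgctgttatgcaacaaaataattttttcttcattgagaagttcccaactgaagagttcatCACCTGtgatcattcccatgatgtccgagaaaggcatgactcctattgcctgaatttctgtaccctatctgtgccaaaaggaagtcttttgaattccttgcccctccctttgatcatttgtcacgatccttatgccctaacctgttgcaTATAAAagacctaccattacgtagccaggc
Reg4: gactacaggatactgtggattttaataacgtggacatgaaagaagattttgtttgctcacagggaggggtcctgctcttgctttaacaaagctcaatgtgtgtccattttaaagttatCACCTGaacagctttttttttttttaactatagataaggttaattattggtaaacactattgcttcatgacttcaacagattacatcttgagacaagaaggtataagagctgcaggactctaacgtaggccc

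Promoter sequences matched all 7 members by gene symbol. CACCTG was found before Reg2, Reg3a, Reg3b, Reg3d and Reg4 (5 of 7) and in 17.2% of the 32851 RefSeq promoters of the same length. TTTCCC, as its reverse complement, lies 211 to 206 bases before the Reg1 start, and 4 of 7 members held it (Reg1, Reg3b, Reg3d and Reg3g) beside 21.95% of all promoters. Neither Reg1 nor Reg2 held exact matches to both. Variants of these letters were not searched, so this does not show that a paired element is absent. TTCNNNGAA was found before Reg3b and Reg3d (2 of 7; 7.02% of all promoters), in Reg3d overlapping a TTTCCC match. TATAAA, added after the sequences were seen, starts 30 bases before the start of both Reg1 and Reg2. It was found in 4 of 7 members, beside 12.4% of all promoters. Reg4 held no exact match, and variant letters, such as the tataag near its start, were not searched. In global alignments of these windows Reg3b and Reg3g had 68.4% identity, Reg1 and Reg2 55.6%, and Reg1 and Reg4 48.2%. A match to these letters is a description of the window and not a binding site.

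Acinar genes of the pancreas moved in the same direction as Reg1 and Reg2. Of the 39 genes listed, 27 were on the array and 24 were measured, of which 19 reached 2-fold as lower in transgenic colon and 0 as higher, with a median log2 ratio of −5.57. Of all 8346 measured genes, 0.611% were lower and 0.767% higher by this rule. At the floor in the transgenic pool were 16 of these 19, so these 16 could come out only as lower. Their ratios are bounds, and the floor sets the size of the median. The elastase genes Cela3b and Cela2a went from 3515 and 3148 in wild type to 4.52 and 13.1, and the trypsinogen gene Prss2 from 3065 to 2.45. Ctrb1, a chymotrypsinogen gene, went from 3127 to 0.829, Cpb1, a carboxypeptidase gene, from 2784 to 9.42, and 2210010C04Rik from 3139.7 to 2.15. The remaining 3 lower genes exceeded the floor in both pools: colipase (Clps) was 7.69-fold, the lipase-related gene Pnliprp2 6.37-fold and the elastase gene Cela1 2.85-fold lower, a group chosen after its values were seen. Summed over the 19 lower genes, the intensity came to 38550.3 in the wild-type pool against 1724 in the transgenic pool, 2.08% and 0.0922% of the summed intensity of all genes. Over all 27 genes on the array it was 46876 and 10229. The part of pancreatic tissue in the Reg1 and Reg2 result was not tested, and with 1 pool per genotype it cannot be told apart from genotype.

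The other 5 measured genes of the acinar list stayed within 2-fold, but Bhlha15 could not have reached it as lower. Bhlha15 read 20.4 in wild type, just above the floor, and 14.9 in transgenic colon, so its log2 ratio of −0.04 is a bound. Sycn read 3244 in wild type against 3107 in transgenic colon, and Sycn, Spink1 and Klk1 had log2 ratios of −0.06, 0.18 and 0.03, and the other two were Nr5a2 and Bhlha15. The acinar transcription factor gene Ptf1a was below the floor in both pools, at 10.4 and 4.71. These 6 genes were chosen after their values were seen.

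The pattern of Reg1 and Reg2, above the floor in wild type, at the floor in transgenic colon and at least 2-fold lower, was shared by 26 of all measured genes (0.312%). Of these 26, 2 were the Reg genes, 16 belonged to the acinar list and 0 to the islet and duct lists. The acinar list made up 24 of the 8346 measured genes. The other 8 were Tff2, Serpini2, Cyp1a1, Serpinf1, Mmachc, Zfp959, Rpl39 and Scnn1g. These 8 are set apart only by absence from the 3 pancreatic lists, which does not make them genes without pancreatic expression. The likeness rests on 2 arrays, and values at the floor have no order.

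The measured genes of the islet and duct lists did not show this pattern. Of 13 islet list genes on the array 6 were measured and 0 reached 2-fold, with a median log2 ratio of −0.32. The other 7 were below the floor in both pools. Among the 6, Ptprn read 24.5 in wild type and was at the floor in the transgenic pool. It could not have reached 2-fold as lower. Of the measured genes, Gcg and Pyy are also on the enteroendocrine list used below, so this median does not stand for islets alone. Ttr (transthyretin) had −0.50 and the pancreatic polypeptide gene Ppy −0.37. The insulin gene Ins2 was below the floor in both pools, at 11.4 and 5.34, as were the islet amyloid gene Iapp and the pancreatic transcription factor gene Pdx1. Ptprn, Gcg, Pyy, Ins2, Iapp and Pdx1 were chosen after their values were seen. Of the 8 duct genes listed 5 were measured and 0 reached 2-fold, with a median of 0.08, Sox9 at 0.45 and Slc4a4 at −0.37; several of these genes are also expressed in colon epithelium.

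Among gastric and Brunner gland genes 2 of 8 on the array were measured. Tff2, a trefoil peptide that is also expressed in pancreas, read 182 in the wild-type pool against 3.65 in the transgenic pool, at least 9.22-fold lower. The other measured gene, Tff1, had a log2 ratio of −0.47, and Gkn1, Atp4a and Atp4b, defining genes of the stomach, were below the floor in both pools. Of 17 small intestine enterocyte genes 9 were measured, with a median of 0.02. The peptide transporter gene Slc15a1 was the 1 gene past 2-fold, 2.81-fold lower, and the apolipoprotein genes Apoa1 and Apoa4 were below the floor in both pools. Tff1 and the 5 genes named as below the floor here were chosen after their values were seen.

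**Figure D3:**
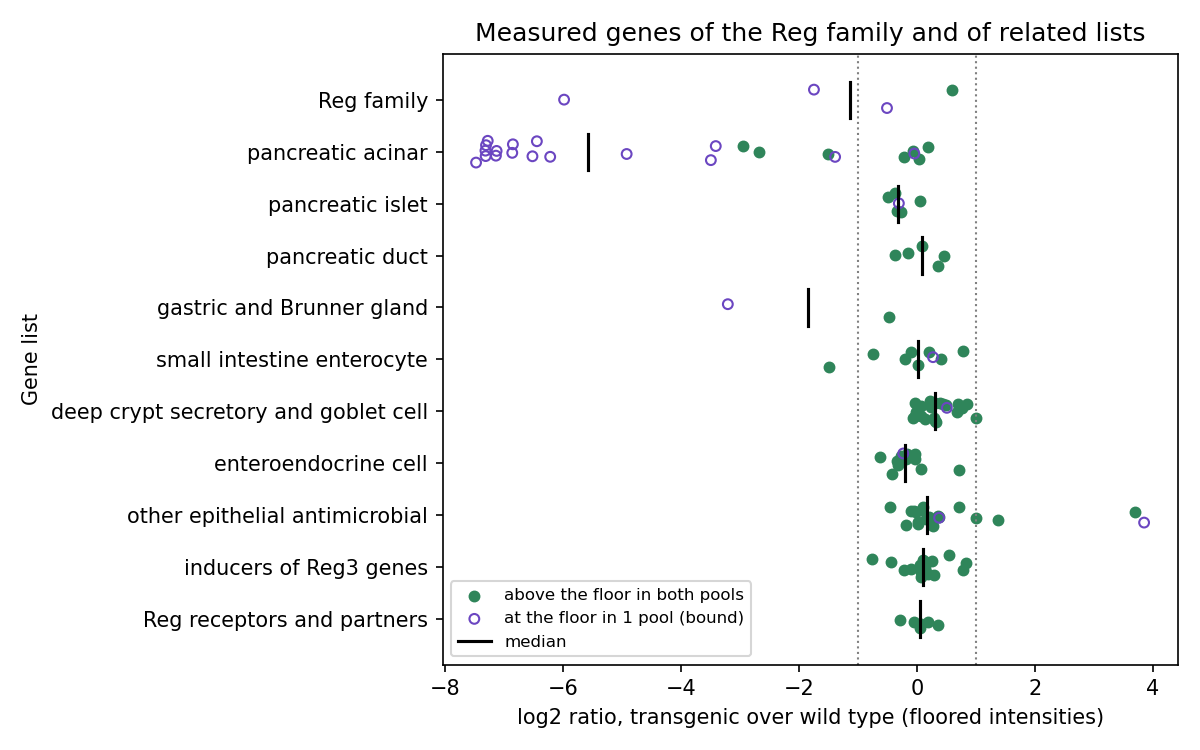
Log2 ratios (transgenic over wild type) of the measured genes of the Reg family and of related gene lists, 1 point per gene with vertical scatter for legibility. Filled points exceeded the floor in both pools, open points are bounds, bars are medians and dotted lines mark 2-fold. The measured acinar genes run from −7.47 to 0.18, a wide range that holds Reg1, Reg2 and Reg3d. The islet and duct genes all lie within 2-fold.

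Secretory cells of the colonic crypt, which include the cells marked by Reg4, had mostly positive ratios. Of 22 measured genes of the deep crypt secretory and goblet cell list 18 were positive. By the 2-fold rule 1 was higher and 0 lower, beside 0.767% and 0.611% of all measured genes. The median log2 ratio was 0.30, beside 0.04 for all measured genes. The positive ratios among all measured genes were not counted, so the sign count has no background here. The gene past 2-fold was Retnlb (RELMβ, a goblet cell protein), from 2153 to 4314, a call lost under median scaling and loess (log2 ratio 0.99 under each). Of the 22 genes 5 had a higher ratio than Reg4: Retnlb, Capn9 (0.86), the goblet cell transcription factor gene Spdef (0.76), Spink4 (0.70) and the mucus protein gene Fcgbp (0.68). Those after Retnlb were chosen after their values were seen. The counts rest on the brightest probe set of each gene, and other probe sets can differ. Over all measured probe sets, Clca1 ran from 0.30 to 1.97 and Kit from 0.45 to 0.70. Kit is also on the mast cell list used below, so its ratio does not stand for crypt cells alone. Agr2 ran from −0.92 to 0.23 and Cd24a from −0.78 to 0.03. Clca1, Kit, Agr2 and Cd24a were also chosen after their values were seen. The ratio of Reg4 lay within the range of this list. The enteroendocrine list (−0.62 to 0.72) and the colonocyte list (−1.03 to 0.64) held it too, so the range sets no list apart.

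Enteroendocrine genes, which belong to the other cells known to express Reg4, had mostly negative ratios. Of 12 measured members 10 were negative and 0 reached 2-fold. Their median was −0.20, beside 0.04 for all measured genes, whose negative ratios were not counted. Neurod1, chosen after its values were seen, read 23.2 in wild type and was at the floor in the transgenic pool. It could not have reached 2-fold as lower. Tac1, the tachykinin gene, had a log2 ratio of −0.62, and Tph1, for serotonin synthesis, had 0.72. The granin gene Chgb, chosen after its value was seen, had −0.32.

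Other secreted defence genes of the epithelium were in part measurable. The array held 28 genes of that list, and 8 of them exceeded the floor in neither pool. Among the 20 measured genes, 4 reached 2-fold as higher and 0 as lower, with a median of 0.18. The 4 were Itln1, an intelectin (at least 14.4-fold), Pla2g2a, a secreted phospholipase (13.0-fold), the pentraxin gene Mptx1 (2.60-fold) and Retnlb, whose call was lost under median scaling and loess. Itln1, Pla2g2a and Mptx1 also make up the 3 genes past 2-fold among the 4 measured genes of the Paneth cell list, whose median was 2.54. Mast cells respond to IL-9, and 5 of 10 measured mast cell genes were at least 2-fold higher, with a median of 1.31. Of the 5, Mcpt1, Mcpt2, Mcpt4 and Fcer1a exceeded the floor in the transgenic pool alone, so they could come out only as higher. Their log2 ratios (6.03, 6.22, 1.78 and 2.76) are bounds. Cpa3 exceeded it in both pools, with a log2 ratio of 2.31. Tpsab1 (−0.30) and Gata2 (−0.18) were negative, and Ms4a2 and Hdc were below the floor in both pools. Tpsab1, Gata2, Ms4a2 and Hdc were chosen after their values were seen.

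The measured genes of the Reg3 inducer list showed no difference of 2-fold. Beside cytokines, that list holds receptors, kinases and a feedback gene, which are not all inducers themselves. Of 38 genes listed 28 were on the array, of which 19 were measured and 9 were below the floor in both pools. Among the 19, 15 had positive ratios and 0 reached 2-fold. The median was 0.11, beside 0.04 for all measured genes, whose positive ratios were not counted. The cytokine genes Il6 (0.249 in the wild-type pool, 0.171 in the transgenic pool) and Il17a (4.42 and 2.42) were below the floor in both pools, and Il22 was not analysed here. Stat3, the transcription factor downstream of IL-22 and IL-6, had an intensity of 369 and 403, a log2 ratio of 0.13. Socs3, a feedback gene of STAT3 signalling, had 36.2 and 64.4, a log2 ratio of 0.83, with its 3 probe sets between 0.25 and 0.83. Bcl3, an NF-κB cofactor, had 0.78. Stat3 and Socs3 were thus measurable in both pools, while Reg3b and Reg3g were not.

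Candidate receptors and partners of Reg proteins were measured in both pools and stayed within 2-fold. All 6 genes of this list were measured, with a median log2 ratio of 0.06. Extl3, which encodes a glycosyltransferase described as the Reg receptor, read 57.6 in the wild-type pool against 73.7 in the transgenic pool, a log2 ratio of 0.36. Egfr, the epidermal growth factor receptor gene linked to Reg4 signalling, had −0.29.

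**Figure D4:**
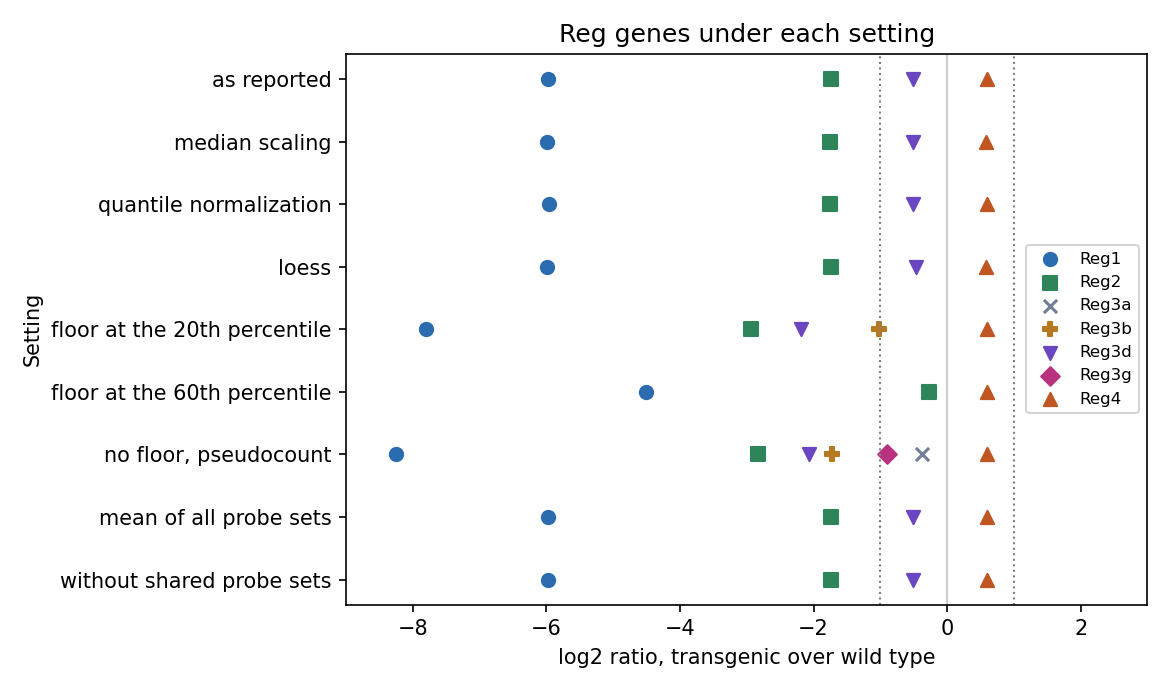
Log2 ratio (transgenic over wild type) of each measured Reg gene as reported and under the 8 alternative settings, with a point where the gene was measured under that setting. Dotted lines mark 2-fold. Reg4 stays between 0.58 and 0.60, Reg1 runs from −8.25 to −4.50, and Reg2 (−0.27) and Reg3d move across the 2-fold line with the floor.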

How the data were processed

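RNA of 4 mice per genotype was pooled before hybridisation, per the series design. The deposited values are intensities on a linear scale, 1 per probe set and array, made by the authors with MAS5, per the submitters' processing notes; version, scaling target and detection calls are not given in the sources used here. Of 22690 probe sets, 64 were controls. Genes were named only from the 20380 probe sets with 1 symbol in the platform annotation (691 had several and 1555 none), and a gene with several was represented by its brightest (mean of both arrays). All 7 member symbols were unchanged in RefSeq GRCm38.p6, whose table was used for names, gene order and promoters.

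Values under the floor (19.8) were set to it, and transgenic intensities were divided by wild-type ones on the log2 scale without further scaling (Python 3.11.15, pandas 2.3.3). The number of arrays limits the precision. The procedure was tested on simulated arrays, with changes planted only in genes well above the floor in wild type. That test did not cover genes with lower wild-type values, such as Reg2 and Reg3d. Promoters were aligned with Biopython 1.88 (match 2, mismatch −1, gap opening −5, gap extension −0.5). Alternatives were median scaling, quantile normalization, loess with a span of 0.3 (limma 3.58.1), floors at the 20th and 60th percentiles, no floor with a pseudocount of 0.735, the mean of all probe sets, leaving out probe sets shared between transcripts, and leaving out pancreatic and Reg genes. The members and lists were chosen with earlier results of these data known. Named genes were all members, up to 6 genes past 2-fold per list or otherwise the 2 with the largest ratios, and fixed inducers; genes outside this rule are marked where named.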

Additional observations from a re-analysis of the deposited data

How the results depend on the processing

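No paired analysis was possible because each genotype has 1 pool. Under median scaling, quantile normalization, loess, the mean of all probe sets and the exclusion of shared probe sets, the counts of Reg genes past 2-fold stayed at 2 lower and 0 higher. The floor decides most calls. With a floor at the 20th percentile 4 Reg genes were lower (median −2.19), beside 258 lower and 202 higher of all measured genes; with the 60th percentile 1 was lower (median −0.27), beside 27 and 29; with no floor and a pseudocount 4 were lower (median −1.72), beside 800 and 655. Reg3b reached −1.02 and −1.72 at the lower floor and with the pseudocount, and Reg3d −2.19 and −2.07, all from transgenic values in the unstable low range. Without pancreatic acinar, islet and Reg genes, 30 genes were lower. Of 10 named list genes past 2-fold, checked after the data were seen, Retnlb alone lost its call where it gave a ratio (0.99 under median scaling and loess). No scaling moved the median of all genes by 0.1. Low signal limits Reg3a, Reg3b, Reg3d and Reg3g.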
